A study of Mus musculus with 2 samples.

Results

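Inhibitory checkpoint receptors and their ligands were followed in CD8+ T cells before and after activation. The group comprised 9 genes, namely the receptors Pdcd1, Ctla4, Lag3, Havcr2, Cd160, Btla and Cd200r1 and the ligands Cd200 and Cd274. They were chosen by name, as every probe set whose platform annotation names 1 of these genes and no other, which gave 13 of the 45037 probe sets and 9 of the 18193 genes on the array. Both groups came from pmel-1 mice, which carry a transgenic T cell receptor for a melanocyte antigen, so most of their CD8+ T cells recognise the same target. The naive group was purified naive CD8+ T cells, and the activated group was proliferating CD8+ T cells taken 72 h after activation. How the cells were activated, from which organ they came and how old the mice were is not stated in the labels. Each group was 1 Affymetrix mouse whole-genome array hybridised with RNA pooled from 4 independent experiments. Neither group therefore had a replicate, the spread between experiments cannot be seen, and no difference below has an error or a test.

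Checkpoint receptors are membrane proteins that restrain T cells once they meet their ligands, which sit on antigen-presenting cells, on tissue cells and on T cells themselves. Several of them carry tyrosine motifs in the cytoplasmic tail that recruit phosphatases and so dampen signals from the T cell receptor and CD28. T cells begin to express many of them during activation, as a feedback brake on a normal response, and long-lasting expression is known from exhausted T cells in chronic infection and tumours.

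The values are deposited intensities on a linear scale, 1 per probe set. Values under 100 lie close to background and were not compared with each other. For a ratio, any value under 100 was first set to 100. A gene was called higher or lower when this ratio reached 1.4 and its deposited intensities were more than 100 apart. This size rule is no test. A fold with 1 value under 100 is a lower bound and is written as "at least". Intensities of different probe sets depend on the probes, so levels are compared between the arrays and not between genes. In bulk RNA, fewer expressing cells and less RNA per cell cannot be told apart.

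The labelled cell type was borne out by its markers. All 7 CD8 T cell markers analysed (Cd3d, Cd3e, Cd3g, Cd247, Cd8a, Cd8b1 and Thy1) were above 100 on both arrays, with sums of 38219 and 27793, and 3 of them (Cd247, Cd8b1 and Thy1) were lower in activated cells by the size rule. Of 3 CD4 T cell markers, 1 reached 100 in the naive pool and 0 in the activated pool, with sums of 174.9 and 168.8. Cd4 was at 45.1 on the naive and 50.5 on the activated array, and Zbtb7b at 104.49 and 85.24. Of 3 regulatory T cell markers, 1 and 2 reached 100, and their sum was larger on the activated array (1208.5 and 1929.6). Foxp3, which defines regulatory T cells, was at 76.5 and 65.9, Ikzf2 at 1055 and 710.2 and Nrp1 at 76.7 and 1153. Summed signals of several other cell types were larger on the naive array. Of 6 B cell markers, 3 reached 100 in the naive pool and 0 in the activated pool, and their summed intensities were 712 and 241.9. Of 5 class II antigen presentation genes, 4 and 2 reached 100, with sums of 7171 and 907, and of 8 macrophage and dendritic cell markers, 3 and 1 did, with sums of 1201 and 625. The 3 red cell markers summed to 7029.8 and 47.9, and almost all of the naive sum was Hbb-b2, at 6852 and 1. Hba-a1 lay under 100 on both arrays (50.9 and 45.9), and Alas2 (127 and 1) did not pass the size rule. The median log2 ratio of activated over naive was 0.01 over the probe sets that reached 100 on each array. Between probe sets that name the same gene, the log2 ratio had a standard deviation of 0.39.

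By the brightest probe set of each gene, 5 of the 9 checkpoint genes were higher in activated cells, 1 was lower, 1 was measured without passing the size rule and 2 lay under 100 on both arrays. The higher genes were Pdcd1, Ctla4, Lag3, Cd200 and Btla, and the lower gene was Cd274. Across all genes the size rule called 12.8% higher and 11.1% lower, or 23.7% and 20.6% of the genes with at least 1 value of 100 or more. Counted by probe set, 6 of 13 were higher and 2 lower, beside 9.38% and 8.23% of all probe sets. Pdcd1, Lag3 and Cd200 counted as measured only through the activated array, where they were high. Once they counted, they could therefore be called higher or not pass, but never be called lower. Of the 4 members at or above 100 in naive cells, Ctla4 and Btla were higher, Cd274 was lower and Cd160 did not pass, beside 21.2% higher and 22.2% lower among all genes at that level in naive cells. The median log2 ratio of these 4 was 0.47, against -0.045 for all genes at that level. Over the 7 measured members the median was 2.97, which is the bound of Lag3 itself, and without the floor the median of all 9 was 0.52.

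**Figure D1:**
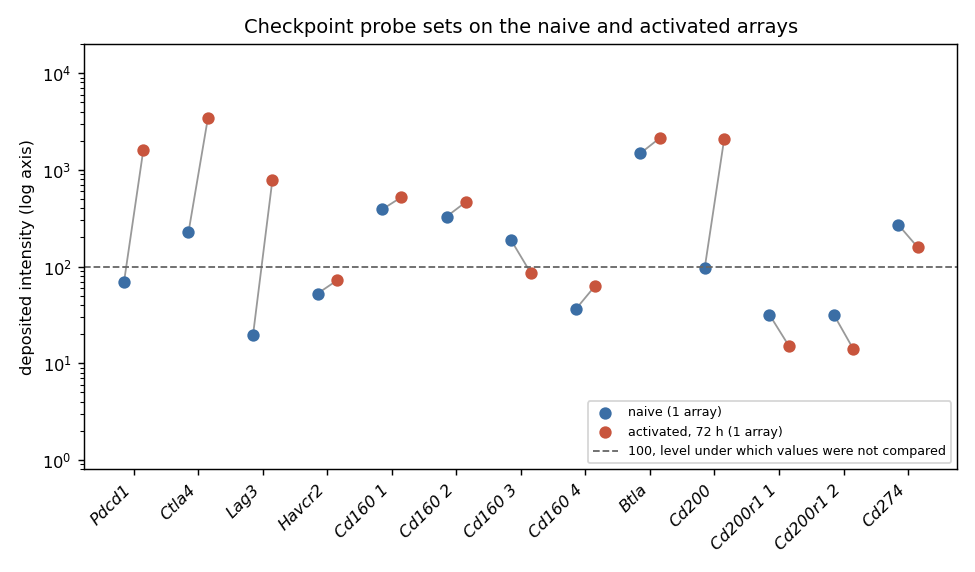
Deposited intensity, on a log axis, of each of the 13 checkpoint probe sets on the naive (blue) and activated (red) arrays, 1 array per group, with numbered probe sets for genes that have several. Pdcd1, Lag3 and Cd200 cross the dashed line at 100, Ctla4 goes from 226 to 3398, and Havcr2 and both Cd200r1 probe sets stay under 100 on both arrays. Heights of different probe sets are not comparable with each other.

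Among the receptors, Pdcd1, Ctla4 and Lag3 differed most between the arrays. Pdcd1, encoding PD-1, which recruits phosphatases when it binds its ligands, was at 68.6 in naive cells and 1600.4 in activated cells. It was therefore at least 16.0-fold higher. Ctla4, whose product competes with CD28 for the ligands CD80 and CD86, was at 226 and 3398. Unlike Pdcd1 it was already above 100 in naive cells, and it was 15.03-fold higher. Among the 8395 genes at or above 100 on both arrays, Ctla4 had the 10th highest ratio. Regulatory T cells also express Ctla4, and their defining gene Foxp3 stayed under 100 on both arrays. Of the 2 other markers listed for them, which activated T cells can express too, Nrp1 was higher (76.7 and 1153) and Ikzf2 lower (1055 and 710.2). The 3 markers summed to 1208.5 and 1929.6, and the part of regulatory T cells in the Ctla4 value was not tested. Genes at least 10-fold higher numbered 75, or 0.412% of all 18193 genes, of which only 9842 were measured. The checkpoint members Pdcd1, Ctla4 and Cd200 were 3 of the 75. Of these 3, Pdcd1 and Cd200 counted as measured only through the activated array. The members were also chosen with earlier results of these data known.

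Lag3, a relative of CD4 that binds class II molecules, was at 19.6, far under 100, before activation and at 784 after it. It was at least 7.84-fold higher, a bound that depends on the floor. The deposited values themselves gave a log2 ratio of 5.32, and raising values under 200 to 200 gave 1.97, and Lag3 passed the size rule in both cases.

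Btla and Cd160, the receptors that share the ligand HVEM, were already well above 100 in naive cells and differed less. Btla was at 1478 in naive cells and reached 2125 after activation, 1.44-fold higher. That ratio lay just above the minimum of 1.4, and 1977th of the 8395 ranked genes. The call was lost under quantile normalisation (log2 ratio 0.46), under loess scaling (0.46) and with a fold minimum of 2. B cells also express Btla. Of the 6 B cell markers, 1 (Cd79b) was lower in activated cells by the size rule, and the part of these cells in the Btla value was not tested.

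Cd160, a receptor anchored in the membrane by a lipid and known from NK cells and CD8 T cells, gave probe sets that disagreed. Its brightest probe set was at 389.6 and 522 (1.34-fold) and did not pass the size rule. The next was at 329 and 467 (1.42-fold higher) and passed by a narrow margin. Another was at 187 and 86.6 (at least 1.87-fold lower) and passed in the opposite direction with a difference only just over 100. The dimmest was at 36.2 and 63.1. Cd160 was thus 1 of 56 genes on the array whose probe sets were called in both directions. No direction is therefore given for Cd160. Of 4 markers of NK and innate-like cells, 2 reached 100 before and 1 after activation, with sums of 740.4 and 296, while the defining gene Ncr1 stayed under 100 (54.7 and 27.8). Their part in the Cd160 values was not tested.

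Havcr2, encoding TIM-3, and Cd200r1, the inhibitory receptor for CD200 known best from myeloid cells, were not measurable at this signal. Havcr2 gave 52.6 before and 71.9 after activation. Cd200r1 was at 31.95 and 15.25 by its brighter probe set and at 31.8 and 14.1 by the other. No fold was formed for either gene, and values under 100 do not show that the transcripts were absent.

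The ligands went in opposite directions. Cd200, the membrane ligand of Cd200r1, was at 97.7 in naive cells, just under the floor, and at 2074 in activated cells. It was at least 20.7-fold higher, and its ratio without the floor was 21.2. Cd274, encoding PD-L1, was at 269.7 in naive cells and 158 in activated cells (1.71-fold lower). Its difference of 112 only just exceeded 100. The call was lost when the minimum was 2-fold or a difference of 200, when values under 200 were raised to 200, and under loess scaling, where the log2 ratio was -0.69 in place of -0.77. Antigen-presenting cells also express Cd274, and 4 of 5 class II genes and 2 of 8 macrophage and dendritic cell markers (Lyz2 and Csf1r) were lower in activated cells by the size rule. Their part in the Cd274 value was not tested.

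**Figure D2:**
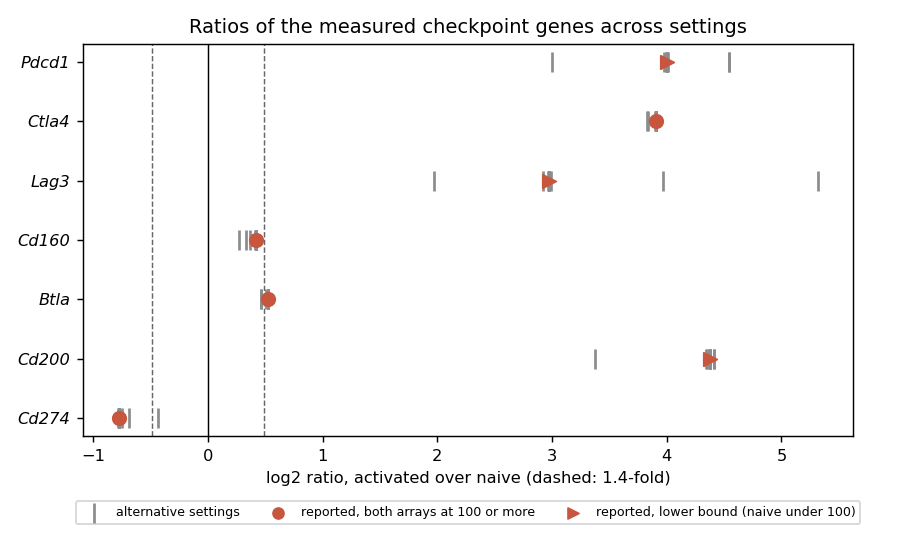
Log2 ratio of activated over naive for the 7 measured checkpoint genes (red; a triangle marks a lower bound, where the naive value lay under 100) with the same ratio under the alternative settings (grey). Pdcd1, Ctla4, Lag3 and Cd200 stay to the right of the 1.4-fold line under every setting shown. Btla lies at its line and crosses it under quantile normalisation and loess scaling, and Cd274 crosses its line with a floor of 200.

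The promoters of 7 of the 9 genes were found in a RefSeq table of assembly GRCm38.p6, as windows from 250 bases before to 50 after the start of the gene. Lag3 and Cd200r1 were not among them. Those of Pdcd1, Ctla4 and Cd200, the members at least 10-fold higher, and of Cd274, which went the other way, are printed here 5′ to 3′ on the strand of the gene. Capitals mark matches on either strand to 4 motifs, namely the NFAT core GGAAA, the AP-1 motif TGANTCA, the TATA box TATAAA and the GC box GGGCGG.
Pdcd1, chr1:94052504-94052803, minus strand: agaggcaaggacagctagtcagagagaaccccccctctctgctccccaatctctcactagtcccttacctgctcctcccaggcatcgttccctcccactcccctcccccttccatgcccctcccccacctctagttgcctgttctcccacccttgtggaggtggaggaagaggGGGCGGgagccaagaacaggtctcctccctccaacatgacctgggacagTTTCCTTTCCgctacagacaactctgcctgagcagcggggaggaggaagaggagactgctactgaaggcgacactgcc
Ctla4, chr1:60908775-60909074, plus strand: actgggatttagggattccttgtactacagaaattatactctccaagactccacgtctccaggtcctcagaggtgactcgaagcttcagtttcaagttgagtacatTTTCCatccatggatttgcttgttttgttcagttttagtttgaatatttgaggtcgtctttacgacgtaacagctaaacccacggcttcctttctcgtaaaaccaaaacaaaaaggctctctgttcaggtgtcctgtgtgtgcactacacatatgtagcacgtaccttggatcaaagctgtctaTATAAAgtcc
Cd200, chr16:45409004-45409303, minus strand: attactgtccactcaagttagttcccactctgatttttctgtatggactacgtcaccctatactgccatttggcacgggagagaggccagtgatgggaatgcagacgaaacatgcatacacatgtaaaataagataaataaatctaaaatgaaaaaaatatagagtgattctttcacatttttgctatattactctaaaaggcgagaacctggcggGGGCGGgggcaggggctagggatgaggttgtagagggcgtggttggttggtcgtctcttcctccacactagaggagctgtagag
Cd274, chr19:29367188-29367487, plus strand: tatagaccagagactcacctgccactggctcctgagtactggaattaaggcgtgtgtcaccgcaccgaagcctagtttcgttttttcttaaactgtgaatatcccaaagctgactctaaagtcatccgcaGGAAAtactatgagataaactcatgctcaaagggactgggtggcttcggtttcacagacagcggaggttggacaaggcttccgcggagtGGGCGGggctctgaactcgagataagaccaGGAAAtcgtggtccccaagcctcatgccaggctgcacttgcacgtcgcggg

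NFAT, a factor that enters the nucleus on calcium signals from the T cell receptor, is known to act on several checkpoint genes. The letters GGAAA occurred in Pdcd1 in a pair of neighbouring matches, starting 28 and 23 bases before the start site on the opposite strand. Ctla4 held 1 match, starting 144 bases before the start site. Cd274, which was lower in activated cells, held 2, starting 120 bases and 1 base before it, and Cd200, at least 20.7-fold higher, held 0. Of 32851 promoters of the same length, 61.3% hold this short motif. Of the 7 members with a window, the AP-1 motif was found in that of Havcr2 (7.81% of all promoters). The GC box was present in Pdcd1, Cd200, Cd274 and 1 of the 2 windows of Cd160 (35.7%), and TATAAA in Ctla4, 41 bases after the annotated start (13.6%). The Btla window held none of the 4 motifs, none of which overlap in the printed windows. A match is a description of the letters in this window and not of binding.

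Beside their receptors, the partner genes did not follow a common direction. For PD-1, the ligand gene Pdcd1lg2 was at 50.7 and 515 (at least 5.15-fold higher), whereas Cd274 was lower. For CTLA-4, Cd80 was at 10.9 before and 260.3 after activation (at least 2.60-fold higher), and Cd86 was at 116 and 29.1, a difference that did not pass. Cd28, the stimulatory receptor for the same ligands, was at 1464 and 2580.3 (1.76-fold higher), a smaller ratio than that of Ctla4 by the values given.

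For Lag3, the class II genes H2-Aa, H2-Eb1 and H2-Ab1 were at 2007 and 83.0, at 1392 and 72.9 and at 701 and 302. These genes also served above as markers of antigen presentation, with sums over 5 genes of 7171 and 907. The part of antigen-presenting cells in the class II values was not tested. The galectin gene Lgals3 was at 165 and 2391 (14.5-fold higher), while Fgl1, a secreted ligand, lay under 100 (6.73 and 5.42). Tnfrsf14, which encodes HVEM, the ligand of BTLA and CD160, was listed at 1.68 and 1.26. These values of its only probe set lie close to 1, the lowest intensity on the arrays, and do not show that the transcript was absent. Lta and Tnfsf14 encode further binding partners of HVEM. Lta was at 153 and 459.8 (3.01-fold higher) and Tnfsf14 at 75.2 and 79.5. Lgals9, encoding galectin-9, a ligand of TIM-3, was at 2209 and 1389 (1.59-fold lower). Cd200r4, a relative of Cd200r1, was at 294 and 14.4 (at least 2.94-fold lower), and the part of other cell types in its value was not tested.

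**Figure D3:**
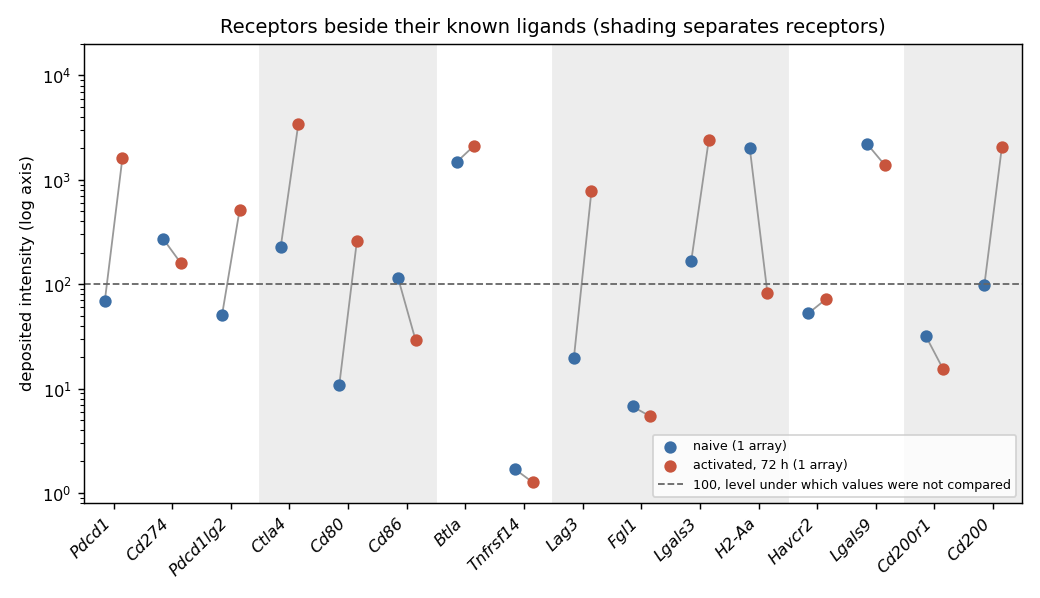
Deposited intensity, on a log axis, of receptor genes beside the genes of known ligands on the naive (blue) and activated (red) arrays, with shading that separates 1 receptor and its ligands from the next. Pdcd1lg2 lies higher and Cd274 lower in activated cells, and Tnfrsf14 and Fgl1 lie far under the dashed line at 100.

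Other inhibitory receptors were level or lower in activated cells by their brightest probe sets. Of 20 such genes listed, 15 had a probe set of their own and 11 were measured, and the size rule called 0 of them higher and 6 lower, beside 23.7% and 20.6% of all measured genes. Their median log2 ratio was -0.61. With the probe sets of a gene averaged, 1 was higher, namely Klrc1, an NK-type lectin receptor chain, which was at 501 and 633 by its brightest probe set and was singled out after its values were seen. Cd72 was at 769 and 173 (4.45-fold lower), Vsir, encoding the checkpoint VISTA, at 1431 and 325.7 (4.39-fold lower), Cd96, a receptor for the ligand CD155, at 2031 and 487 (4.17-fold lower) and Pecam1 at 511 and 201 (2.54-fold lower). Cd72 is best known from B cells, for which 1 of 6 markers (Cd79b) was lower, and their part in its value was not tested. The part of other cell types in the Vsir, Cd96 and Pecam1 values was not tested either. Ceacam1 (70.6 and 101) and Lair1 (103 and 74.0) had ratios near 1 only after their lower value was raised to 100. Cd5, an inhibitory receptor of T cells, was measured on both arrays at 1138 and 1184 and lay closest to no difference among the genes so measured.

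Of 11 measured ligands and counter-receptors, 3 were higher (Lgals3, Pdcd1lg2 and Cd80) and 2 lower (Lgals9 and Cd200r4), with a median of -0.12. These shares lie near the 23.7% and 20.6% of all measured genes. Pvr, encoding CD155, was at 323 and 333. In the short list of stimulatory genes that share these ligands, 3 of the 4 measured were higher and 1 was lower (23.7% and 20.6% of all measured genes), at a median log2 ratio of 1.20. Icos, a stimulatory relative of CD28, was at 861 and 3282 (3.81-fold higher), besides Lta and Cd28 above. Cd226, the stimulatory counterpart of CD96, was at 257 and 147 (1.75-fold lower), a call that was lost under the same settings as that of Cd274.

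Of 23 measured genes whose products signal for checkpoint receptors or move them within the cell, 1 was higher and 8 were lower, beside 23.7% and 20.6% of all measured genes, with a median of 0.03. Trat1, whose product helps bring CTLA-4 to the cell surface, was at 837 in naive and under 100, at 37.2, in activated cells (at least 8.37-fold lower). Its other measured probe set gave a log2 ratio of only -0.71. Pag1, an adaptor that holds the inhibitory kinase CSK at the membrane, was 4.16-fold lower, Pik3r1, a regulatory subunit of phosphoinositide 3-kinase, 2.28-fold lower, and Inpp5d, the lipid phosphatase SHIP1, 2.17-fold lower. On the log2 scale the 4 measured probe sets of Pik3r1 ran from -1.21 to -0.69, and the 2 of Inpp5d from -1.12 to -0.54. The phosphatase genes that PD-1 and BTLA recruit did not pass, with Ptpn6 at 1604 and 1701 and Ptpn11 at 1036 and 1393. Dok2, an adaptor in signalling from the CD200 receptor, was at 565.9 and 566, and Bag6, a partner of TIM-3, at 624 and 636. The member called higher was Ap2m1 (1.48-fold), a subunit of the clathrin adaptor that takes CTLA-4 back into the cell. Cmtm6, whose product protects PD-L1 from degradation, was at 2665 and 1543 (1.73-fold lower).

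Of the 22 measured transcription factors linked to checkpoint genes, 8 were higher and 9 lower, beside 23.7% and 20.6% of all measured genes, with a median log2 ratio of -0.13. These counts rest on the brightest probe sets, and the 9 include Nfatc1, for which no direction is given below. With the probe sets of each gene averaged, 9 were higher and 7 lower. Bhlhe40 was at 59.8 and 1726 (at least 17.3-fold higher), Irf4, an activation-induced factor, at 72.4 and 1469 (at least 14.7-fold higher) and Nr4a3, a nuclear receptor induced by T cell receptor signals, at 138 and 1285 (9.30-fold higher). In the other direction, Fos, a subunit of AP-1, was at 528 and 87.4 (at least 5.28-fold lower). Junb (2032 and 1911) and Nr4a1 (872 and 774) did not pass. Nfatc1 was at 1340.3 and 759 by its brightest probe set (1.77-fold lower), but its 4 measured probe sets ran from -0.82 to 1.51 on the log2 scale, so no direction is given for it. Tox, a factor associated with lasting Pdcd1 expression, was at 727 and 448 (1.62-fold lower), with its 3 probe sets between -0.80 and -0.42, and Tox2 lay under 100 on both arrays.

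**Figure D4:**
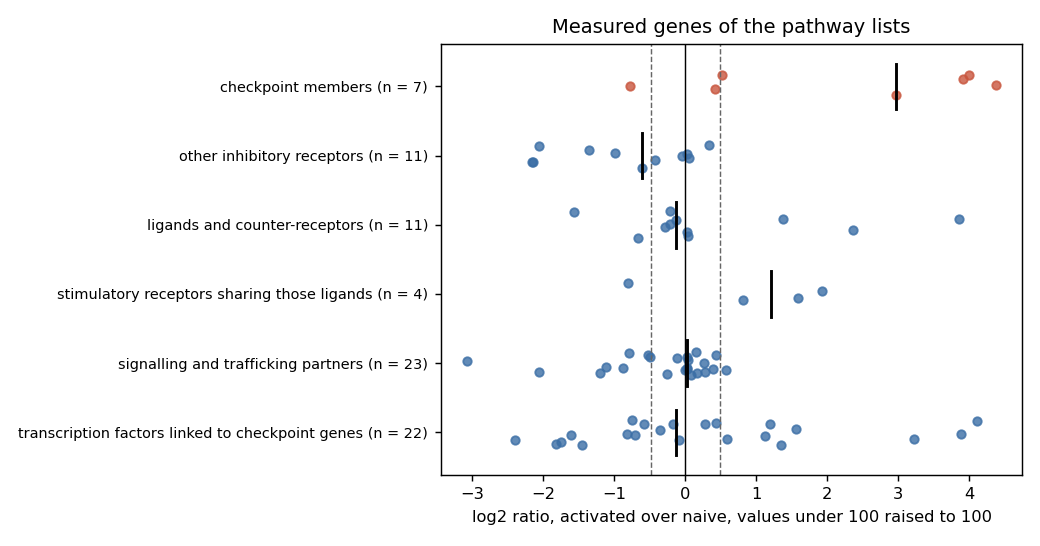
Log2 ratio of activated over naive, with values under 100 raised to 100, for each measured checkpoint gene (red) and each measured gene of the 5 pathway lists (blue), with black bars at the medians and dashed lines at 1.4-fold. The checkpoint genes spread from -0.77 for Cd274 to 4.37 for Cd200, and among the other inhibitory receptors no point lies beyond the right dashed line.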

How the data were processed

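The authors deposited linear intensity values, with 1 value for each probe set and array. The series' design text states that they come from dChip's difference model, which subtracts mismatch from perfect-match probes, after invariant set normalisation of the arrays. GCOS 1.3 served for presence calls, per the design text. The calls are not used here, so the size rule keeps only those parts of the study's rule that intensities allow. From the table of 45101 probe sets, 64 controls were left out. The platform's annotation gave 34945 of the rest 1 symbol, 932 several and 9160 none, and only those with 1 symbol named a gene. The probe set brightest on average stands for its gene, and by it 9842 genes reached 100 at least once. With 1 array per group no test was made, and precision is limited by the number of arrays. The size rule was checked on simulated data, with planted differences well above its minimum fold, in bright genes only. The simulated noise was smaller than the spread between probe sets of the same gene. That check therefore cannot speak to calls near the minimums, such as those of Btla and Cd274.

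The checkpoint genes, pathway lists and marker lists were chosen with earlier results of these data known. Named are all checkpoint genes and, per pathway list, at most 4 genes past the size rule with the widest ratios and at most 2 closest to no difference. The ligands Cd86, Fgl1, Lgals9, Tnfrsf14, Tnfsf14 and class II, the phosphatase genes, Cd5, Ap2m1, Cmtm6, Nfatc1, Tox and Tox2 were chosen outside this rule, with their values in view. Genes that had only shared probe sets or none, among them Tigit, Cd244 and Lck, were not analysed here. Alternatives changed the fold and difference minimums, the floor, the scaling and the probe set that stands for a gene. Python 3.11.15 with pandas 2.3.3, numpy 2.4.6 and statsmodels 0.14.6 was used.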

Additional observations from a re-analysis of the deposited data

How the results depend on the processing

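Under the 11 alternatives, 70 of 77 recomputed log2 ratios of checkpoint genes kept their direction and their side of the size rule, 7 kept the direction but no longer passed, and 0 reversed. All 7 belonged to Btla or Cd274, while Pdcd1, Ctla4, Lag3 and Cd200 were higher in all 12 settings. Many of the 77 could not change direction. The fold and difference minimums leave a ratio as it is, and the choice of probe set alters only Cd160 among the measured members. The 77 also include Cd160, which passed in no setting and is given no direction above. Lower checkpoint genes numbered 0 in place of 1, and lower probe sets 0 in place of 2, when the minimum was 2-fold, when the difference had to exceed 200, with a floor of 200, and under loess scaling. Quantile normalisation left 1 lower probe set. The median log2 ratio of the measured members was 2.22 with a floor of 50, 1.97 with a floor of 200 and 0.52 with no floor, since the number of members measured and the bounds change with the floor. In the pathway lists, 100 of 110 recomputed counts stayed within 1.5 times the reported count. A fold minimum of 2 left 4 of the 8 lower calls among signalling and trafficking partners and 5 of the 9 among transcription factors. No scaling moved the median log2 ratio of the probe sets at or above 100 on both arrays by more than 0.04. Median scaling removes this median by design. No paired analysis was possible because each group has 1 array. Signals under 100 limit what can be said of Havcr2 and Cd200r1.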

Other observations

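Several checkpoint genes lie next to genes of the same families, and the immediate neighbours of 9 members were therefore read as well, a choice made after the values were seen. Neighbours were the 2 nearest protein-coding genes on each side in RefSeq assembly GRCm38.p6, used for gene order only. Of 32 neighbours that are no members themselves, 20 were measured, of which 10 were higher in activated cells and 2 lower, beside 23.7% and 20.6% of all measured genes.

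Around Ctla4 on chromosome 1, its neighbours Cd28 and Icos were higher, as given above, and so was Raph1, at 21.3 in naive and 646 in activated cells (log2 ratio of at least 2.69). Around Pdcd1 on the same chromosome, Fam174a (672 and 511) and St8sia4 (1431 and 1228) did not pass. Its neighbour Gal3st2c lay under 100 on both arrays, and Neu4 had no probe set of its own. On chromosome 16, Btla and Cd200 are adjacent, with log2 ratios of 0.52 and at least 4.37. Atg3, an autophagy gene beside Btla, was at 1641 and 1892 and did not pass, and Slc35a5 was lower (827 and 352). On chromosome 19, Cd274 and Pdcd1lg2 are adjacent and went opposite ways, with log2 ratios of -0.77 and at least 2.36. On chromosome 6, Lag3 lies beside Cd4, which stayed under 100 on both arrays (45.1 and 50.5), while on its other side Ptms was at 228 and 991 and Mlf2 at 444 and 1005, both higher by the size rule. Near Havcr2, itself under 100 on both arrays, Med7 was at 218 and 544.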
